A study of Mus musculus with 16 samples.

Results

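Proteasome genes were described in peritoneal B1a cells and splenic B (Bs) cells of B6 and Sle2c1 mice. They were taken as every gene whose symbol, as the only one the platform annotation gives a probe set, starts with Psma, Psmb, Psmc, Psmd, Psme, Psmf or Psmg and a digit. This gave 49 genes, with 103 of the 45101 probe sets of the table. Of these genes 48 passed the filter on low values, among 22727 features tested, and Psmb11, the thymus form of a catalytic subunit, did not. The probe set with the highest mean over the 16 arrays stood for each gene. The rule also took in Psmc3ip, which acts in meiotic recombination, and Psme3ip1, a partner of the activator Psme3, and neither is a proteasome subunit. Psme2, the partner of Psme1, was not analysed here, because no probe set of the annotation names it alone. There were 4 arrays in each of 4 groups, named B6_B1a, Sle2c1_B1a, B6_Bs and Sle2c1_Bs. B6 stands for C57BL/6 mice and Sle2c1 for congenic B6.Sle2c1 mice, which carry a segment of a lupus-prone strain on the B6 background, and all mice were 5 months old. Per the labels' protocols, CD43-negative Bs cells were prepared with a kit and were above 90% B220hi. Peritoneal cells were cultured for 2 h to remove macrophages and went through selection with antibodies to Thy1.2, CD3ε and CD5 on beads. They held 80% B220int CD5+ cells. Organ, culture and selection differ between B1a and Bs together with the cell type and cannot be told apart from it.

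The proteasome degrades proteins tagged with ubiquitin. Its barrel is built of outer alpha rings, which gate the entrance, and inner beta rings, which hold the catalytic sites of Psmb5, Psmb6 and Psmb7. A cap of ATPase subunits (Psmc genes) and non-ATPase subunits (most Psmd genes) binds, unfolds and feeds the substrate. In lymphocytes and after interferon-gamma the catalytic subunits can be replaced by Psmb8, Psmb9 and Psmb10 of the immunoproteasome, which cuts peptides for MHC class I. Such turnover matters in B cells because antibody production loads the cell with misfolded protein.

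Values are in units of the deposited score, which behaves like a log signal with an unknown base, so that differences are not fold changes. Sums and differences over several probe sets are compared between arrays only, and no gene's level is ranked against another's. Values below 0.495, called the floor, were raised to it. Cdkn2c, the cell cycle inhibitor gene of the congenic segment, read 1.21 ± 0.132 (SD, n = 4) in B6_B1a against 0.612 ± 0.183 in Sle2c1_B1a, and 1.42 ± 0.172 in B6_Bs against 0.521 ± 0.0525 in Sle2c1_Bs, and was lower in Sle2c1 in both cell types (limma, adjusted p = 0.00392 and 0.00114). Markers of the labelled cells separated the preparations. The 5 B1a markers summed to between 6.73 and 8.74 on B1a arrays and to between 3.56 and 4.18 on Bs arrays, where Cd5 lay at the floor throughout, and the 3 measured of 5 follicular markers to between 3.44 and 5.34 on B1a and between 8.8 and 9.4 on Bs arrays. Of the 5 B1a markers Zbtb32 and Ctla4 were higher in B1a in both strains. Cd5, the selection marker, was higher in B6 (0.58, adjusted p = 0.0164) and did not pass in Sle2c1 (0.25, adjusted p = 0.253), with 0.745 ± 0.342 in Sle2c1_B1a, and Spn and Bhlhe41 passed in neither strain. Correlations of arrays within a group ran from 0.781 to 0.971. Sle2c1_B1a 4, B6_Bs 3, Sle2c1_Bs 3 and B6_Bs 1 stood apart from the other arrays of their groups, and results are given without them where this changed a call. No label says that replicates came from separate mice, so that p-values measure only the spread between these arrays.

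Of the 48 genes 43 lay above the floor on all 16 arrays and 5 had at least 1 array at the floor. Replicates lay close together, with a median SD over the 48 genes of 0.0499 (B6_B1a), 0.0716 (Sle2c1_B1a), 0.075 (B6_Bs) and 0.0627 (Sle2c1_Bs). Over all features the median SD was 0.113, 0.236, 0.176 and 0.143. The mean over the 48 genes was 2.44 ± 0.0287 for B6_B1a and 2.42 ± 0.0465 for Sle2c1_B1a arrays, and 2.37 ± 0.0443 and 2.35 ± 0.033 for the Bs arrays of B6 and Sle2c1. The heat map of single arrays shows these small differences as pale cells, with the stronger colours in Psmd14 and in genes close to the floor.

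**Figure D1:**
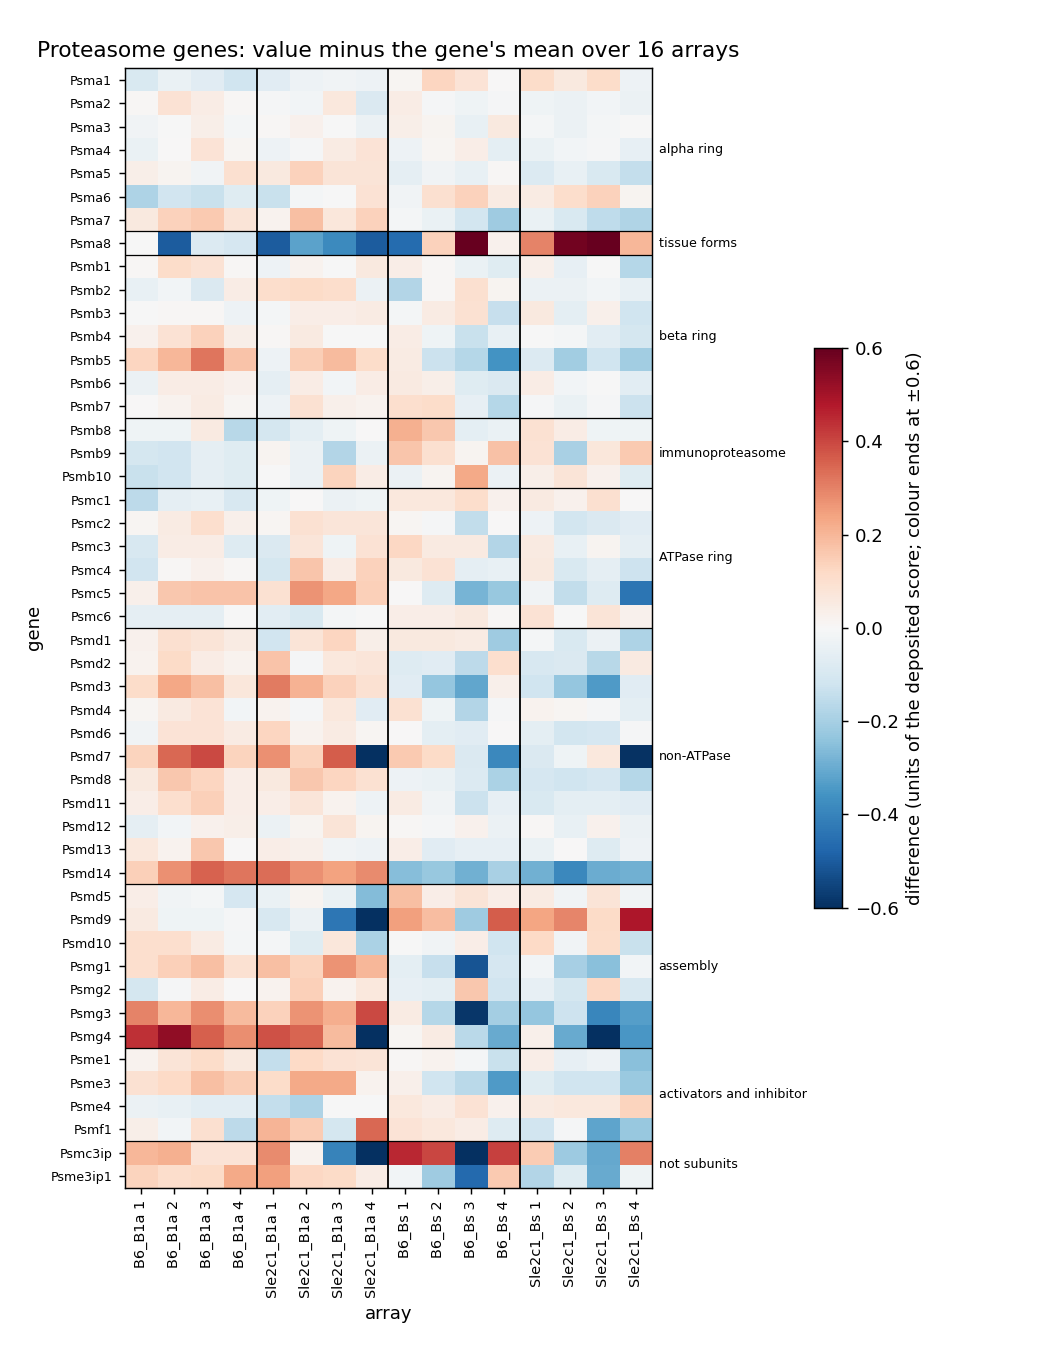
Each row is a proteasome gene and each column an array, and the colour gives the value minus the gene's mean over the 16 arrays in units of the deposited score, with the scale ending at 0.6 either way. Psmd14 is red on all 8 B1a arrays and blue on all 8 Bs arrays, while most rows are pale and Psma8, Psmd9, Psmg4 and Psmc3ip vary between replicates.

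For 4 of the genes described below, the 250 bases before the RefSeq start (GRCm38.p6) are shown, to set genes called in both strains beside immunoproteasome genes that were not. Psmd14 (chr2:61711444-61711693, + strand) and Psmb5 (chr14:54617996-54618245, - strand) were higher in B1a cells of both strains. Psmb8 (chr17:34197945-34198194, + strand) and Psmb9 (chr17:34187331-34187580, - strand) are immunoproteasome genes that did not pass the test with the probe set used. Each sequence is on the gene's own strand, and capitals mark matches to the motifs searched.
Psmd14: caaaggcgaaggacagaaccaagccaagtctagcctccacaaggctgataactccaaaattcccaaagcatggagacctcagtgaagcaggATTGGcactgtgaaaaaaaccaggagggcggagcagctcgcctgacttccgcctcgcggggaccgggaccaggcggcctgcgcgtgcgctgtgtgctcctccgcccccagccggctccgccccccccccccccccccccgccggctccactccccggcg
Psmb5: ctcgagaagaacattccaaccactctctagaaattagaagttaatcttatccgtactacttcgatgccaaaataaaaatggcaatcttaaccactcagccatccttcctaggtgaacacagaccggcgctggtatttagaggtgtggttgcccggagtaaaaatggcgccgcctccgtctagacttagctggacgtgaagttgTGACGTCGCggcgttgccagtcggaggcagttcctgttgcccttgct
Psmb8: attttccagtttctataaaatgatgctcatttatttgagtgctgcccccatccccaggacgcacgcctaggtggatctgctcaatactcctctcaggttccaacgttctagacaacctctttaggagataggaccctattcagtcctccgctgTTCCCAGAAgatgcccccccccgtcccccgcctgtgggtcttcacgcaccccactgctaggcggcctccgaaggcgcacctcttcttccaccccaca
Psmb9: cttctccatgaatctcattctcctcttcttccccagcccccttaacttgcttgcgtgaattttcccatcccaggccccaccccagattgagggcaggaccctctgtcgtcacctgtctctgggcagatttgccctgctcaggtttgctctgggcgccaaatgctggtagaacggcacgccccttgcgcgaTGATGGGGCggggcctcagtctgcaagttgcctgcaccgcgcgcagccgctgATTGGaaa
The motifs were TGANNNNGC (antioxidant response element), TTCNNNGAA (gamma activated site), the CCAAT box and the interferon response element, taken as 2 blocks of GAAA with any 2 bases between them. They were searched on both strands, and no 2 matches in these 4 windows overlapped. With the base before the start counted as -1, Psmd14 held a CCAAT box on the opposite strand from -159 to -155. Psmb5 held TGANNNNGC from -47 to -39. Psmb8 held TTCNNNGAA from -97 to -89. Psmb9 held TGANNNNGC from -60 to -52 and a CCAAT box on the opposite strand from -8 to -4. A match is a description of letters and not of a binding site. Of the 48 genes 40 had an entry in the promoter table, and Psma8, Psmb1, Psmb2, Psmb7, Psmc3, Psmd3, Psmd7 and Psmg2 had none. TGANNNNGC stood in 16 of the 40 (40%, against 38.7% of 27025 genes), CCAAT in 15 (37.5%, against 37.5%), the interferon response element in Psmb3, Psmd4 and Psmd9 (7.5%, against 3.46%) and TTCNNNGAA in Psmb8 and Psmg1 (5%, against 8.13%).

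B1a cells were compared with Bs cells in each strain, with limma's test fitted to every feature and calls made at an adjusted p under 0.05. In B6, 9 of the 48 genes were higher and 2 lower in B1a cells (22.9%, against 21.3% of all features), and in Sle2c1 11 were higher and 3 lower (29.2%, against 25.8%). The share of proteasome genes called was therefore near that of all features, while the direction differed. Under quantile normalization the calls were 7 higher and 0 lower in B6 and 11 higher and 1 lower in Sle2c1, and with arrays centred on their medians they were 3 higher and 0 lower in B6 and 2 higher and 2 lower in Sle2c1. Higher calls made up 9.02% of all features in B6 and 11.0% in Sle2c1, and lower calls 12.2% and 14.7%. The median difference of the 48 genes was 0.0487 in B6 and 0.0675 in Sle2c1, beside -0.0525 and -0.045 over all features. Groups did not overlap for 17 genes in B6 (22.4% of all features) and for 17 in Sle2c1 (25.5%). These arrays hold RNA of whole preparations, so that fewer cells of a type and less RNA per cell cannot be told apart. Psma7, Psmb5, Psmc5, Psmd3, Psmd8, Psmd14, Psmg1, Psmg3 and Psme3 passed in both strains, all higher in B1a, where 6.45% of all features were called higher in both and 8.35% lower in both. The 2 comparisons use separate arrays but share each gene's estimate of the spread. Same-numbered Bs arrays of both strains also deviated together, clearly so for numbers 1 and 3, so that the 2 comparisons are not independent.

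**Figure D2:**
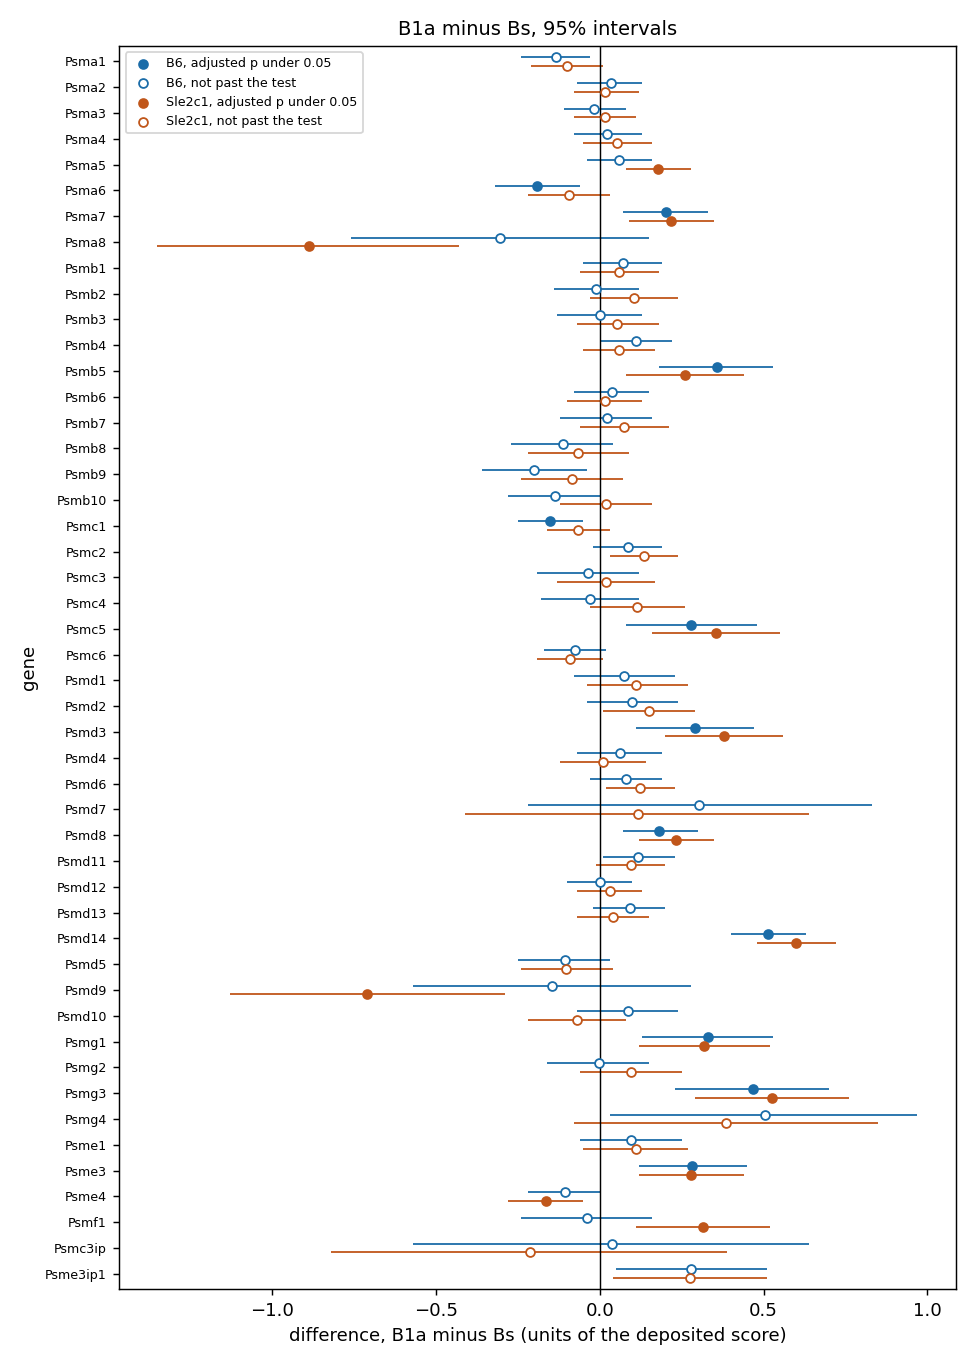
Points give the difference B1a minus Bs in units of the deposited score for each proteasome gene in B6 and in Sle2c1, lines the 95% intervals, and filled points an adjusted p under 0.05. Psmd14 lies farthest to the right among the filled points in both strains, at 0.52 and 0.60, and the intervals of genes near the floor such as Psma8 and Psmd9 are wide.

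Psmd14, the deubiquitinase of the cap that removes ubiquitin chains from substrates as they enter, read 3.29, 3.42, 3.5 and 3.47 on the B6_B1a arrays and 3.48, 3.42, 3.39 and 3.43 on the Sle2c1_B1a arrays. It read 2.89, 2.92, 2.86 and 2.95 in B6_Bs and 2.86, 2.76, 2.85 and 2.86 in Sle2c1_Bs. Every B1a array lay above every Bs array of either strain. The difference was 0.52 in B6 (SE 0.0552, adjusted p = 1.17e-05) and 0.60 in Sle2c1 (adjusted p = 2.06e-06), the smallest adjusted p among the 48 genes in both strains. It passed under each of 15 alternatives and without each single array in both strains, with adjusted p between 1.08e-08 and 0.00295 in B6 and between 1.02e-09 and 0.00159 in Sle2c1 over the alternatives. Psmd14 is measured by 1 probe set.

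Psmd3, a scaffold subunit of the cap's lid, read 2.31, 2.43, 2.38 and 2.27 in B6_B1a, and 2.13, 1.97, 1.89 and 2.23 in B6_Bs. In Sle2c1 it read 2.51, 2.41, 2.34 and 2.29 in B1a, and 2.08, 1.97, 1.86 and 2.13 in Bs. The groups did not overlap in either strain, and the lowest B1a array of B6 lay just above the highest Bs array. Differences were 0.29 (SE 0.0846, adjusted p = 0.0251) and 0.38 (adjusted p = 0.00459). Psmd8, another lid subunit, lay between 2.56 and 2.68 on all 8 B1a arrays and between 2.33 and 2.49 on all 8 Bs arrays, with differences of 0.18 (SE 0.053, adjusted p = 0.0255) and 0.23 (adjusted p = 0.00512). Over the 11 non-ATPase subunits the median difference was 0.1 in B6 and 0.116 in Sle2c1, with 10 of 11 above 0 by more than their SE in B6 and 7 of 11 in Sle2c1. Of all 22727 features, 5766 lay above 0 by more than their SE in B6 and 6549 in Sle2c1. Besides Psmd14, Psmd3 and Psmd8, the other 8 of the 11 did not pass in either strain with the probe set used. Other probe sets of Psmd11, Psmd6 and Psmd13, genes named after their values were seen, did pass. Psmd11 was higher in B1a on 1 such probe set by 0.24 in B6 and 0.32 in Sle2c1 (adjusted p = 0.00666 and 0.000722 in a fit of all probe sets), and on another by 0.25 in Sle2c1 (adjusted p = 0.0113). Psmd6 was higher on another probe set by 0.17 in Sle2c1 (adjusted p = 0.0138) and Psmd13 by 0.19 in B6 (adjusted p = 0.0401).

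The ATPase ring, whose 6 subunits unfold the substrate, was mixed. Psmc5 read 2, 2.13, 2.14 and 2.14 in B6_B1a and 1.97, 1.89, 1.69 and 1.74 in B6_Bs. In Sle2c1 it read 2.06, 2.24, 2.2 and 2.11 in B1a and 1.95, 1.82, 1.89 and 1.53 in Bs. The groups stayed apart by a narrow gap in both strains. Psmc5 was higher in B1a by 0.28 in B6 (adjusted p = 0.0423) and by 0.36 in Sle2c1 (adjusted p = 0.0109). Psmc1 went the other way in B6, at 2.09 to 2.2 in B1a and 2.27 to 2.35 in Bs, and was lower by a difference of -0.15 (SE 0.0462, adjusted p = 0.0312). In Sle2c1 it differed by -0.07 without passing (adjusted p = 0.321). The other probe set of Psmc1 gave 0.18 in B6 without passing (adjusted p = 0.612). The remaining 4 ATPase genes passed in neither strain.

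Among the 7 alpha ring genes, Psma7 lay between 2.75 and 2.85 in B6_B1a and between 2.48 and 2.68 in B6_Bs, and between 2.71 and 2.87 in Sle2c1_B1a and 2.51 and 2.65 in Sle2c1_Bs. It was higher in B1a by 0.20 (SE 0.0601, adjusted p = 0.0284) and 0.22 (adjusted p = 0.0164). Its other probe set gave 0.2 and 0.21 and passed in both strains (adjusted p = 0.0363 and 0.0271 in a fit of all probe sets). Both probe sets of Psma7 thus gave the same result. Psma6 read 2.75, 2.82, 2.8 and 2.86 in B6_B1a and 2.91, 3.03, 3.07 and 2.98 in B6_Bs, and was lower in B1a by a difference of -0.19 (adjusted p = 0.0348). In Sle2c1 it differed by -0.09 (adjusted p = 0.267). The probe set used for Psma6 is of a type whose probes may also match other transcripts (x_at). Another, not of that type, read 2.8 in B6_B1a and 2.84 in B6_Bs and differed by -0.04 in B6 and 0 in Sle2c1. A further x_at probe set of Psma6 gave -0.25 in B6 and -0.23 in Sle2c1. Neither of these passed in B6 (limma, adjusted p = 0.613 and 0.0546) or in Sle2c1, nor did a probe set with 8 arrays at the floor. Psma5 read 3.12 to 3.2 in Sle2c1_B1a and 2.92 to 3.02 in Sle2c1_Bs and was higher in B1a by 0.18 (adjusted p = 0.013), while in B6 it differed by 0.06 (adjusted p = 0.397). A second probe set of Psma5, at 3.04 in Sle2c1_B1a and 2.99 in Sle2c1_Bs, did not pass in Sle2c1 (0.05, adjusted p = 0.524). No alpha ring gene but these passed in either strain. Psma8, which replaces Psma7 in the testis form of the proteasome, lay at the floor on 1 B6_B1a and 2 Sle2c1_B1a arrays. Its means were 0.821 ± 0.222 and 0.568 ± 0.0872 on the B1a arrays of B6 and Sle2c1, and 1.12 ± 0.532 and 1.46 ± 0.265 on the Bs arrays. It was lower in B1a in Sle2c1 (-0.89, SE 0.213, adjusted p = 0.00723), with values at 0.495 to 0.67 against 1.19 to 1.77, and differed by -0.30 in B6 (adjusted p = 0.338). With a floor at 1 unit the call in Sle2c1 ended (-0.455, adjusted p = 0.0553), as it did with no floor (-3.803, adjusted p = 0.144).

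The beta ring holds the constitutive catalytic subunits. Psmb5, which carries the chymotrypsin-like site, read 2.75, 2.82, 2.94 and 2.79 in B6_B1a and 2.67, 2.49, 2.45 and 2.26 in B6_Bs. In Sle2c1 it read 2.59, 2.77, 2.81 and 2.73 in B1a and 2.54, 2.41, 2.5 and 2.41 in Bs. The groups did not overlap in either strain. Psmb5 was higher in B1a by 0.36 in B6 (SE 0.0822, adjusted p = 0.00687) and by 0.26 in Sle2c1 (adjusted p = 0.0321). Psmb6, the caspase-like subunit, differed by 0.04 (95% interval -0.08 to 0.15) in B6 and by 0.02 (-0.10 to 0.13) in Sle2c1. Psmb7, the trypsin-like subunit, differed by 0.02 (-0.12 to 0.16) and 0.08 (-0.06 to 0.21), and its 2 B6_Bs arrays at 3.08 and 3.09 lay above every other array. Of the 7 beta ring genes Psmb5 alone passed with the probe set used. A second probe set of Psmb4, a gene named after its values were seen, was higher in B1a in both strains, by 0.17 and 0.19 (adjusted p = 0.0408 and 0.023 in the fit of all probe sets).

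None of the 3 immunoproteasome genes passed between cell types with the probe set used. Psmb8, the inducible counterpart of Psmb5, read 2.7, 2.7, 2.78 and 2.56 in B6_B1a, 2.62, 2.67, 2.7 and 2.73 in Sle2c1_B1a, 2.94, 2.89, 2.67 and 2.69 on B6_Bs and 2.82, 2.77, 2.7 and 2.7 on Sle2c1_Bs arrays. B6_Bs 1 and 2 were high and the groups overlapped. B1a minus Bs was -0.11 in B6 (95% interval -0.27 to 0.04, adjusted p = 0.284) and -0.07 in Sle2c1 (-0.22 to 0.09, adjusted p = 0.513). Another probe set of Psmb8, described below, was lower in B1a by differences of -1.21 and -1.15 (limma, adjusted p = 3.37e-08 and 4.77e-08 in a fit of all probe sets). Psmb9, the counterpart of Psmb6, read 2.25, 2.24, 2.3 and 2.28 in B6_B1a and 2.52, 2.45, 2.37 and 2.53 in B6_Bs. It read 2.37, 2.32, 2.18 and 2.32 in Sle2c1_B1a and 2.44, 2.16, 2.42 and 2.51 in Sle2c1_Bs. Its B6 groups did not overlap, and its Sle2c1 groups did because of Sle2c1_Bs 2. The differences were -0.20 in B6 (-0.36 to -0.04, adjusted p = 0.0689) and -0.09 in Sle2c1 (-0.24 to 0.07, adjusted p = 0.42). In B6 it passed under 6 of 15 alternatives, with adjusted p between 0.0186 and 0.398 over all of them. Psmb10, the counterpart of Psmb7, read 2.04, 2.06, 2.12 and 2.1 in B6_B1a, 2.17, 2.14, 2.31 and 2.22 in Sle2c1_B1a, 2.14, 2.19, 2.4 and 2.14 on B6_Bs and 2.21, 2.25, 2.2 and 2.1 on Sle2c1_Bs arrays. The B6_B1a arrays were below all arrays of the other groups except Sle2c1_Bs 4. B1a minus Bs was -0.14 in B6 (-0.28 to 0, adjusted p = 0.156) and 0.02 in Sle2c1 (-0.12 to 0.16, adjusted p = 0.852).

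**Figure D3:**
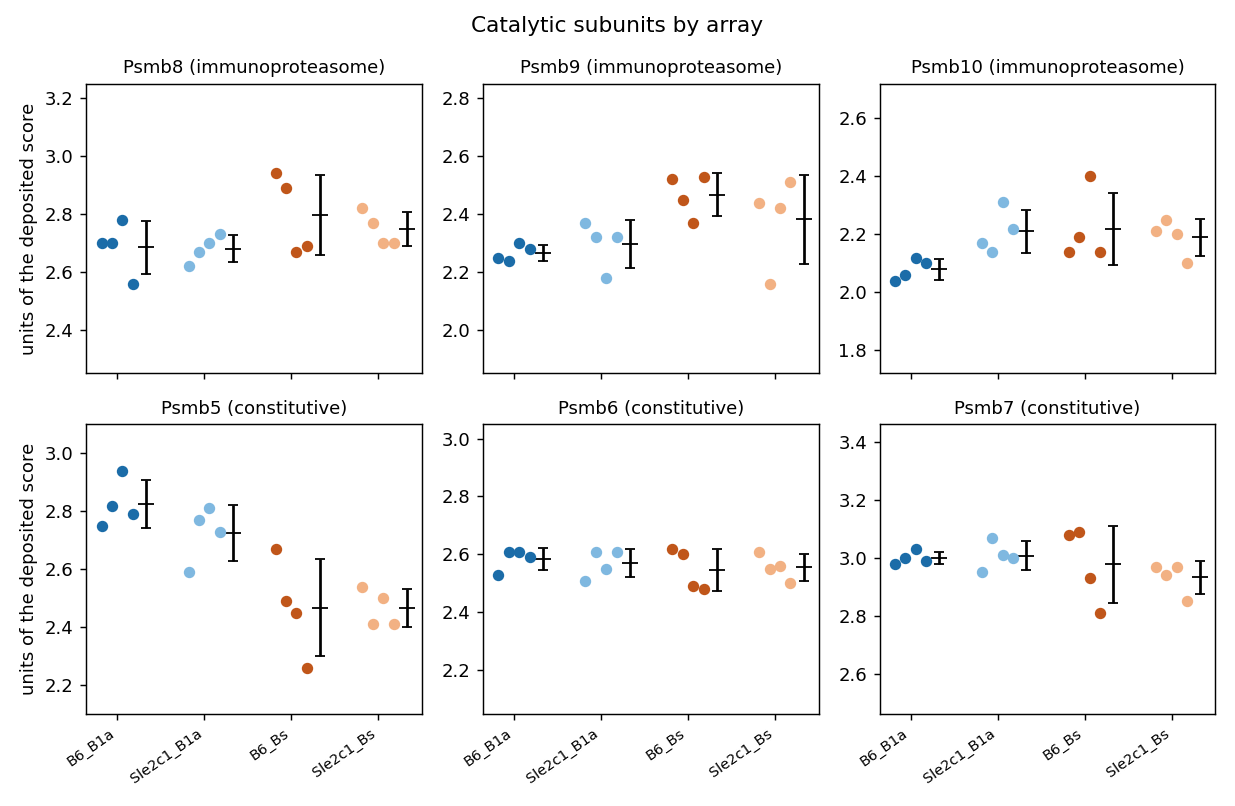
Points give the value of the 3 immunoproteasome genes and their constitutive counterparts on each of the 16 arrays in units of the deposited score, and bars the group mean and SD, with axes of equal span that do not start at 0. Psmb5 lies higher on B1a than on Bs arrays of both strains, from 2.59 to 2.94 against 2.26 to 2.67, while Psmb6 and Psmb7 do not part by cell type.

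The difference between an immune and a constitutive subunit on the same array cancels a shift of that array's values, and was compared between groups by size, with no test. Psmb8 minus Psmb5 lay lower on B1a than on Bs arrays by a shift of -0.47 in B6 and -0.33 in Sle2c1, without overlap of the groups in either strain, where Psmb5 alone differed by 0.36 and 0.26. Psmb9 minus Psmb6 shifted by -0.24 in B6 without overlap and by -0.1 in Sle2c1 with overlap. Psmb10 minus Psmb7 shifted by -0.16 in B6 and -0.05 in Sle2c1, both with overlap.

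Of the 7 genes that help to assemble the proteasome, Psmg1 and Psmg3 were higher in B1a of both strains. Psmg1, a chaperone of the alpha ring, read 1.76 to 1.85 in B6_B1a and 1.15 to 1.61 in B6_Bs, and 1.8 to 1.94 in Sle2c1_B1a and 1.42 to 1.65 in Sle2c1_Bs. The differences were 0.33 (SE 0.0922, adjusted p = 0.0203) and 0.32 (adjusted p = 0.0213). Psmg3 read 1.88, 1.78, 1.86 and 1.77 in B6_B1a and 1.63, 1.41, 1 and 1.38 in B6_Bs, a difference of 0.47 (SE 0.11, adjusted p = 0.00774), and it differed by 0.52 in Sle2c1 (adjusted p = 0.0028). B6_Bs 3 was low for both genes. The other probe set of Psmg3, with 5 arrays at the floor, differed by -0.39 in B6 and 0.16 in Sle2c1 and passed in neither. Psmg4, which works with Psmg3, differed by 0.50 in B6 without overlap of the groups (adjusted p = 0.117) and by 0.39 in Sle2c1 (adjusted p = 0.21). Psmd9, a chaperone of the ATPase base, read 1.54, 1.6, 1.2 and 0.495 in Sle2c1_B1a and 1.87, 1.93, 1.75 and 2.12 in Sle2c1_Bs, and was lower in B1a (-0.71, SE 0.197, adjusted p = 0.0168). Sle2c1_B1a 4 lay at the floor. Psmd9 differed by -0.14 in B6 (adjusted p = 0.644), and its 2 other probe sets, with 7 arrays at the floor each, gave 0.24 and 0.11 in Sle2c1 and did not pass.

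Of the activators and the inhibitor, Psme3, whose nuclear ring opens the barrel without ubiquitin, read 2.65, 2.68, 2.74 and 2.71 in B6_B1a and 2.59, 2.44, 2.4 and 2.22 in B6_Bs. In Sle2c1 it read 2.67, 2.79, 2.79 and 2.58 in B1a and 2.49, 2.44, 2.44 and 2.34 in Bs. It was higher in B1a in both strains, by 0.28 in each (SE 0.0758, adjusted p = 0.0172 and 0.0147), and its other measured probe set gave 0.36 and 0.48 (adjusted p = 0.00554 and 0.000454). Psme4, an activator linked to histone turnover, read 2.34 to 2.52 in Sle2c1_B1a and 2.58 to 2.66 in Sle2c1_Bs and was lower in B1a there (-0.16, adjusted p = 0.0328). In B6 it differed by -0.11 (adjusted p = 0.161). Its 5 other probe sets gave -0.09 to -0.48 in Sle2c1, and none of them passed. Psmf1, which inhibits the barrel in vitro, read 1.64, 1.59, 1.33 and 1.78 in Sle2c1_B1a and 1.32, 1.43, 1.12 and 1.21 in Sle2c1_Bs and was higher in B1a there by 0.31 (adjusted p = 0.0261), although the groups overlapped, and it differed by -0.04 in B6 (adjusted p = 0.808). The 2 other measured probe sets of Psmf1, with 2 and 8 arrays at the floor, gave -0.03 and 0.25 in Sle2c1. Neither passed there (adjusted p = 0.946 and 0.194 in a fit of all probe sets). Psme1, part of the interferon-induced activator, differed by 0.10 (95% interval -0.06 to 0.25) and 0.11 (-0.05 to 0.27). Psmc3ip, which is no subunit, differed by 0.04 and -0.21 and passed in neither (adjusted p = 0.953 and 0.608).

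Each call other than those of Psmd14 in both strains, Psmb5 in B6 and Psmg3 in Sle2c1 ended under at least 1 alternative or without 1 array. Leaving out 1 array ended the call in B6 of Psma6 (B6_B1a 1, 2 or 3 or B6_Bs 2, 3 or 4, adjusted p up to 0.0931), of Psma7 (B6_B1a 2 or 3 or B6_Bs 3 or 4, up to 0.081), of Psmc1 (B6_B1a 1, 2 or 4 or B6_Bs 2 or 3, up to 0.0886) and of Psmc5 (B6_B1a 2, 3 or 4 or B6_Bs 2, 3 or 4, up to 0.121). It ended that of Psmd3 (B6_B1a 2 or 3 or B6_Bs 2 or 3, up to 0.0776), of Psmd8 (B6_B1a 2 or 3 or B6_Bs 4, up to 0.0796), of Psme3 (B6_Bs 4, 0.0504) and of Psmg1 (B6_B1a 3, 0.0566). In Sle2c1 it ended the call of Psma7 (Sle2c1_B1a 2, 0.0505), of Psmb5 (Sle2c1_B1a 2 or 3 or Sle2c1_Bs 2, 3 or 4, up to 0.084), of Psmg1 (Sle2c1_B1a 3 or Sle2c1_Bs 2 or 3, up to 0.0701), of Psmf1 (Sle2c1_B1a 1, 2 or 4 or Sle2c1_Bs 3 or 4, up to 0.0853) and of Psme4 (Sle2c1_B1a 1 or 2 or any Sle2c1_Bs array, up to 0.0972). Without Sle2c1_B1a 4, B6_Bs 3 and Sle2c1_Bs 3 together, 6 genes passed in B6, 5 of them among the 11, and 12 in Sle2c1, 11 of them among the 14. The calls lost were those of Psmc5 (adjusted p = 0.125), Psmc1 (0.0671), Psmd8 (0.0529), Psma7 (0.0666), Psma6 (0.0658) and Psmd3 (0.053) in B6, and of Psmb5 (0.0738), Psma7 (0.0684) and Psmf1 (0.156) in Sle2c1. Without B6_Bs 1 as well, 9 and 13 passed, and the calls lost were those of Psmc5 (0.0941), Psmc1 (0.122) and Psmd3 (0.0753) in B6 and of Psma7 (0.0672) and Psmf1 (0.169) in Sle2c1. Averaging the probe sets of a gene ended the calls of Psmg3 (0.039, adjusted p = 0.809), Psma6 (-0.126, 0.181) and Psmc1 (0.014, 0.956) in B6. It ended those of Psmd9 (-0.119, adjusted p = 0.384), Psmf1 (0.178, 0.283), Psma5 (0.128, 0.259) and Psme4 (-0.227, 0.113) in Sle2c1. The call of Psmf1 ended under 7 of 15 alternatives in all. With each array centred on its median before the floor, 3 passed in B6 (Psmd14, Psmb5 and Psmg3) and 4 in Sle2c1 (Psmd14, Psmg3, Psma8 and Psmd9), against 19.3% and 21.8% of all features.

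Markers of other cells also differed between the preparations. Of 13 macrophage markers 12 were measured, of which 7 were higher and 2 lower in B1a than in Bs in B6, against 1 and 5 in Sle2c1. Their summed level ran from 16.23 to 28.79 in B6_B1a, from 11.62 to 12.5 in Sle2c1_B1a, from 15.88 to 16.92 on B6_Bs and from 13.32 to 15.01 on Sle2c1_Bs arrays. Csf1r, Timd4, C1qb, C1qc and Apoe lay at the floor on every Sle2c1_B1a array. Cd14 alone was higher in B1a in both strains, by 2.37 and 2.28. Mertk (-1.04 and -1.02) and Csf1r (-0.41 and -0.84) were lower in B1a in both. The 5 mast cell markers were all higher in B1a in B6 and 2 were in Sle2c1, with sums of 6.78 to 10.4 in B6_B1a, 4.24 to 8.06 in Sle2c1_B1a, 2.48 to 3.37 on B6_Bs and 2.84 to 3.98 on Sle2c1_Bs arrays, and Mcpt4 and Tpsb2 lay at the floor on every Bs array. The 6 measured T cell markers of 8 summed to 6.39 to 7.7 in B6_B1a and 3.17 to 6.54 in Sle2c1_B1a. They summed to 4.75 to 5.42 on B6_Bs and 4.04 to 4.75 on Sle2c1_Bs arrays. Of these markers 2 were higher and 1 lower in B1a than in Bs in B6, against 0 and 1 in Sle2c1. Of 7 neutrophil markers 6 were measured, of which 2 were higher in both strains, S100a8 (0.43 and 0.89) and S100a9 (0.45 and 0.94), and 2 were lower in B6 and 1 in Sle2c1, and their sums lay between 8.37 and 10.6 on B1a and between 8.28 and 11.83 on Bs arrays. Among the 5 plasma cell markers Prdm1 was higher (1.86 and 1.66) and Jchain lower (-1.38 and -1.88) in B1a. Irf4 was higher in B6 (0.31) and did not pass in Sle2c1 (0.09). The sums lay between 12.12 and 15.1 on B1a and between 12.69 and 13.95 on Bs arrays. Of the 5 measured B cell markers of 6, 2 were lower in B1a in B6 and 3 in Sle2c1, Cd79b (-0.32 and -0.49) and Ms4a1 (-0.17 and -0.23) in both, with sums between 13 and 13.81 on B1a and between 13.73 and 14.7 on Bs arrays. The difference between the actin control probe sets for the 3′ and 5′ end of the transcript lay between 0.63 and 0.89 on B1a arrays and between 0.59 and 1.05 on Bs arrays. For Gapdh it lay between 0.26 and 0.52 on B1a arrays and between 0.33 and 0.74 on Bs arrays. The part of other cells or of RNA quality in these differences was not tested.

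Sle2c1 cells were then compared with B6 cells of the same type. No proteasome gene passed in B1a cells, where 3.38% of all features were called (1.93% higher and 1.45% lower in Sle2c1). None passed in Bs cells, where 0.154% were called (0.123% higher and 0.0308% lower). At an unadjusted p under 0.05 there was 1 gene in B1a, Psmd9 (-0.43, limma adjusted p = 0.286), beside 3903 of the 22727 features, and there were 0 in Bs beside 778. The median difference was 0.00625 in B1a (0.025 over all features) and -0.025 in Bs (0.015 over all features). Over the 43 genes above the floor on all arrays, the differences lay between -0.11 and 0.16 (B1a) and between -0.20 and 0.08 (Bs). In Bs cells 37 of the 48 differences were below 0, against 9234 of all 22727 features, but 5 of the 48 were below 0 by more than their SE. Groups did not overlap for 3 genes in B1a (8.38% of all features), namely Psmb10, Psmc1 and Psmd9, and for 0 in Bs (2.34%). The B1a preparations of both strains also differed in markers of other cells. Of 12 measured macrophage markers 7 were lower and 0 higher in Sle2c1_B1a than in B6_B1a. Of 6 measured T cell markers 1 was lower, as was 1 of 5 plasma cell markers. In Bs cells 0 of these markers passed between strains. The part of other cells in the strain comparison was not tested.

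Psmb10 had the largest strain difference of the immunoproteasome genes. It was 0.13 in B1a, with 2.04 to 2.12 on B6_B1a and 2.14 to 2.31 on Sle2c1_B1a arrays (95% interval -0.01 to 0.27, adjusted p = 0.337), and -0.03 in Bs (adjusted p = 1). Psmb8 differed by -0.005 in B1a (-0.16 to 0.15) and by -0.05 in Bs (-0.20 to 0.10). Psmb9 differed by 0.03 in B1a (-0.13 to 0.19) and by -0.08 in Bs (-0.24 to 0.07). Larger differences belonged to genes with widely spread replicates. Psmf1 differed by 0.16 in B1a (adjusted p = 0.418) and -0.20 in Bs, Psmc3ip by -0.38 in B1a with Sle2c1_B1a 4 at the floor, Psmg4 by -0.24 and Psma8 by 0.33 in Bs (adjusted p = 1). Psmd9 differed by 0.14 in Bs. Among the catalytic partners, Psmb5 differed by -0.10 in B1a (95% interval -0.28 to 0.08) and by -0.003 in Bs (-0.18 to 0.17), Psmb6 by -0.01 and 0.01, and Psmb7 by 0.01 and -0.04. Psme1 differed by -0.03 and -0.04. The only member on chromosome 4 with Cdkn2c was Psmb2, 144 named genes away.

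**Figure D4:**
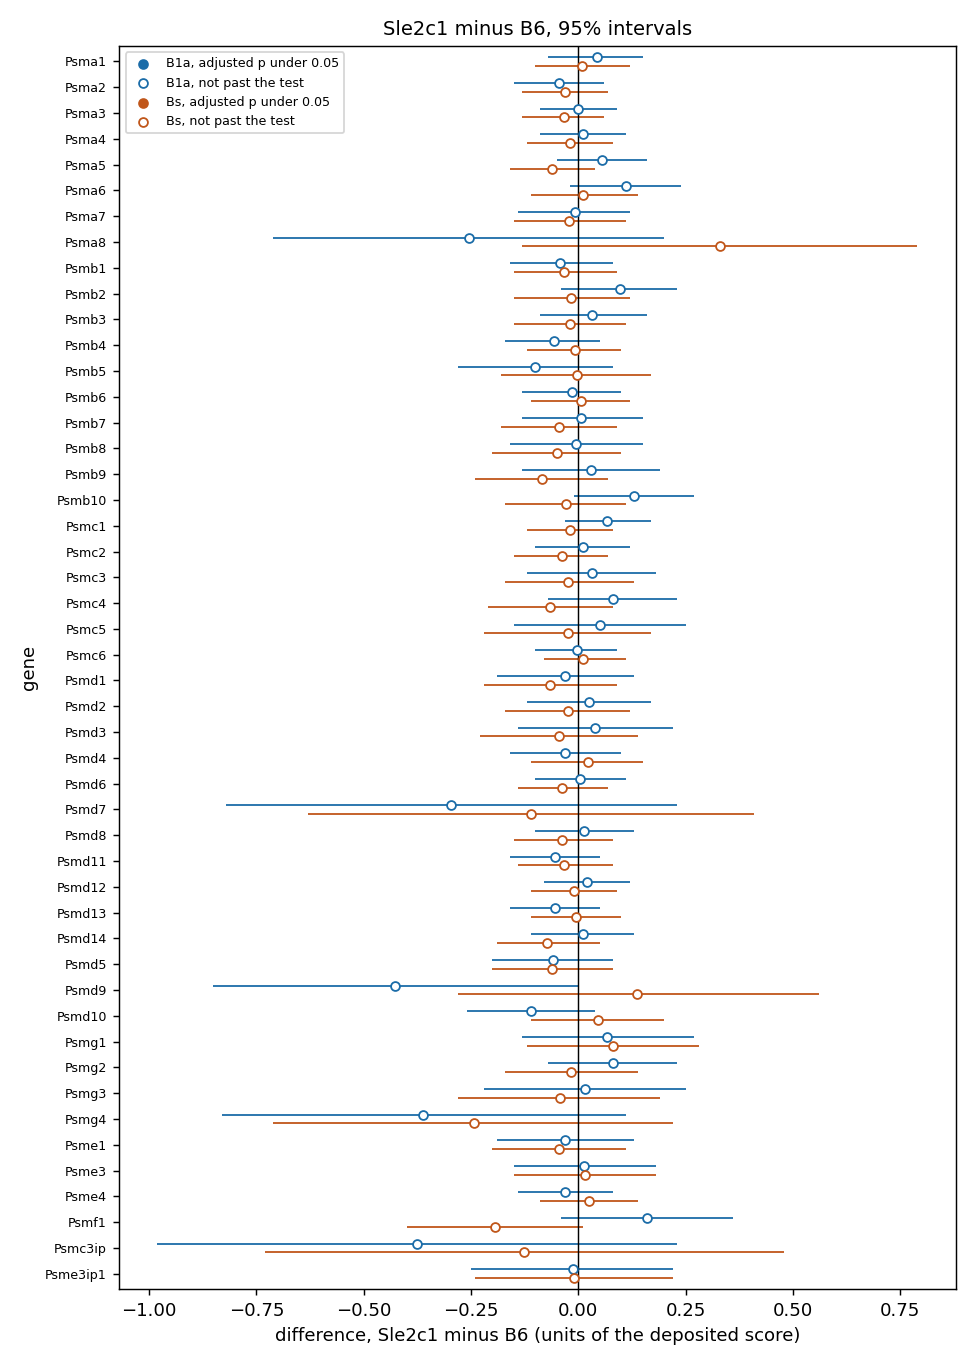
Points give the difference Sle2c1 minus B6 in units of the deposited score for each proteasome gene in B1a and in Bs cells, and lines the 95% intervals. No point is filled, since none reached an adjusted p under 0.05, and the differences farthest from 0 belong to genes with wide intervals such as Psmd9 at -0.43 and Psma8 at 0.33.

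The strain differences in the 2 cell types were set against each other by an interaction term. No proteasome gene passed (0.431% of all features did, 0.264% higher and 0.167% lower), and at an unadjusted p under 0.05 there was 1, Psmf1, whose strain difference was larger by 0.35 in B1a (SE 0.135, limma adjusted p = 0.547). The same term tests whether the cell type differences differ between strains, so that a call in 1 strain alone, as for Psma5, Psma6 or Psmc1, is not shown to be particular to it. Psma8 (-0.58, adjusted p = 0.742) and Psmd9 (-0.56, adjusted p = 0.71) had the most negative terms. Psmb10 had a term of 0.16 (95% interval -0.04 to 0.36, adjusted p = 0.82), Psmb9 one of 0.11 (adjusted p = 0.94) and Psmb8 one of 0.05 (adjusted p = 0.988).

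Of the 48 genes 25 had further probe sets past the filter, 49 in all. In the fit of all probe sets 7 of the 49 passed in B6 and 8 in Sle2c1, of which 5 and 6 belonged to genes whose probe set used did not pass, namely Psmb1, Psmb4, Psmb8 and Psmd11 in both strains, Psmd13 in B6 and Psmd6 in Sle2c1. Of the genes called with the probe set used, 5 in B6 and 7 in Sle2c1 had other probe sets, and for 3 and 5 of them no other probe set passed. The probe sets with the widest gaps to the one used, chosen after their values were seen, belonged to Psmb8 and Psmb1. Psmb8 has a probe set of a type whose probes may also match other transcripts (x_at), which read 1.83 ± 0.049 in B6_B1a, 1.85 ± 0.0927 in Sle2c1_B1a, 3.04 ± 0.115 on B6_Bs and 3 ± 0.108 on Sle2c1_Bs arrays. It was lower in B1a by differences of -1.21 and -1.15 (adjusted p = 3.37e-08 and 4.77e-08 in a fit of all probe sets), where the probe set used differed by -0.11 and -0.07. Averaging both gave Psmb8 a call in both strains (-0.659, adjusted p = 7.36e-06, and -0.607, adjusted p = 1.32e-05). Psmb1, a beta ring gene without a catalytic site, has a probe set of the same type at 2.69 ± 0.0126 in B6_B1a and 2.65 ± 0.106 in Sle2c1_B1a. It read 0.639 ± 0.288 in B6_Bs, where B6_Bs 3 alone lay above the floor (1.07), and lay at the floor on every Sle2c1_Bs array. Its differences of 2.05 in B6 and 2.15 in Sle2c1 are therefore lower bounds. The 2 other probe sets of Psmb1 differed by 0.05 to 0.07 and passed in neither strain. Neither of these probe sets passed between strains in either cell type. Which transcripts they read was not tested.

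**Figure D5:**
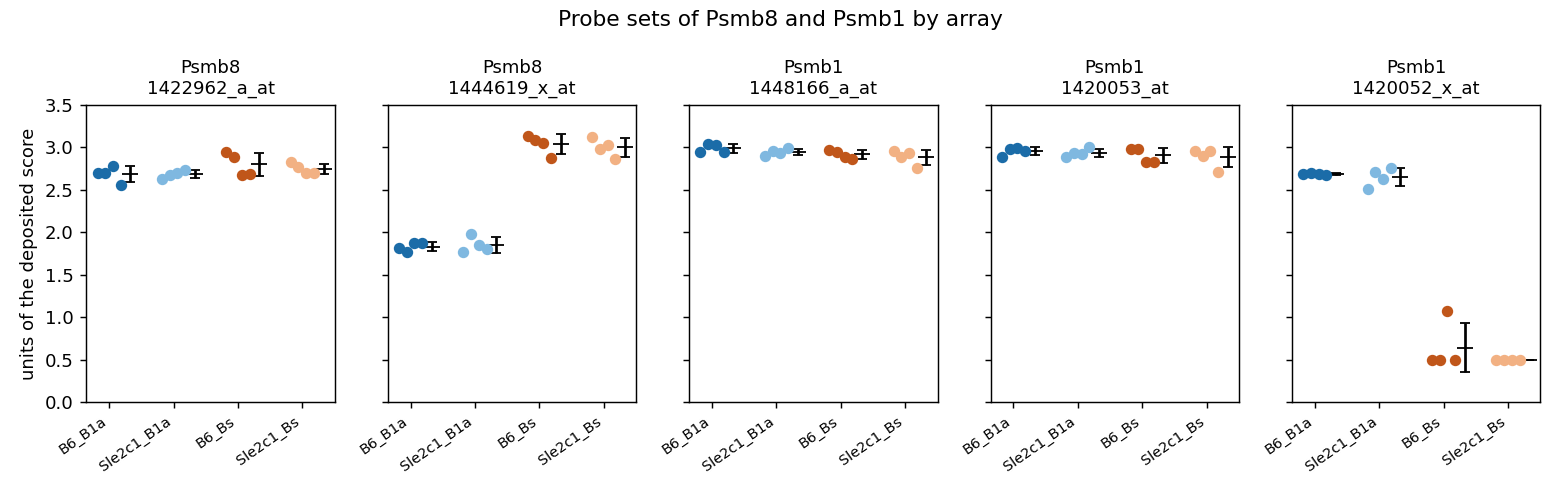
Points give the values of 2 probe sets of Psmb8 and 3 of Psmb1 on the 16 arrays in units of the deposited score, and bars the group mean and SD. The probe sets ending in x_at part by cell type in opposite directions, Psmb8 at about 1.83 against 3.04 in B6 and Psmb1 at 2.69 against 0.639, while the others stay level.

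Partner genes of the proteasome came from a list of 45, of which 35 were measured. In the strain comparisons and the interaction 0 of 35 passed. In B1a against Bs, 6 were higher and 5 lower in B6, and 6 were higher and 4 lower in Sle2c1, with medians of 0.03 and -0.002, where 21.3% and 25.8% of all features were called. Zfand5, a zinc finger protein that binds and stimulates the proteasome, was lower in B1a by differences of -0.85 (SE 0.0526, adjusted p = 3.74e-08) and -0.72 (adjusted p = 1.85e-07), with 2.57 ± 0.051 in B6_B1a and 3.42 ± 0.0525 in B6_Bs. Usp14, a deubiquitinase of the cap, was higher in B1a by 0.22 in B6 (adjusted p = 0.0355) and by 0.29 in Sle2c1 (adjusted p = 0.00512). Of the 12 measured cap partners, deubiquitinases and receptors 2 were higher in B1a in each strain. Of the genes that control subunit expression through Nrf2, Nfe2l2 was higher in B1a by 0.25 in B6 (adjusted p = 0.0118) and its inhibitor Keap1 by 0.97 (adjusted p = 0.00442). In Sle2c1 Nfe2l2 read 2.38 in B1a and 2.18 in Bs, and Keap1 read 2.24 and 1.64. Of the 4 measured genes that control subunit expression 2 were higher in B1a in each strain. Genes of MHC class I peptide loading, for which the immunoproteasome cuts, went both ways. Of the 12 measured, 2 were higher and 4 lower in B1a in B6, and 2 were higher and 3 lower in Sle2c1. Erap1, which trims peptides, was higher in B1a by 0.28 and 0.43 (adjusted p = 0.00598 and 0.00017). B2m, the class I light chain, was lower in B1a by differences of -0.22 and -0.21 (adjusted p = 0.00695 and 0.00691). Nlrc5, the transactivator of class I genes, was higher in B1a than in Bs cells of Sle2c1 mice by 0.32 (adjusted p = 0.00443). As 0 of 35 partners passed for the interaction, a result given for 1 strain is not shown to be particular to it.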

How the data were processed

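RNA was amplified and labelled with the NuGEN Ovation kit, per the labels' protocols, and read on 16 Affymetrix mouse arrays. The deposited table, made by the authors, gives 45101 probe sets, 64 controls among them, as a score whose log base, centring and scaling are not given in the sources used here. Each array has its own lowest value, shared by many probe sets, and differences are given in score units. No counts or depth underlie it, so the number of arrays limits precision.

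Each array's 40th percentile was taken, and the floor was set at the median of these 16 percentiles (0.495). A probe set was kept when 4 or more arrays read above their own percentile (35032), and the highest mean stood for a gene (22727 features). Group means were fitted over all 16 arrays with limma 3.58.1 in R 4.3.3, with two-sided moderated tests and Benjamini-Hochberg adjustment over all features. In simulated data 52 of 100 shifts of 0.3 and 73 of 100 of 0.6 were recovered between Sle2c1 and B6 B1a arrays, beside 15 false calls in all, 13 of them with arrays at the floor. The shifted features were drawn from all those above the floor on every array, with no other group difference. These rates are therefore not a measure for the proteasome genes. Deviations of same-numbered Bs arrays of both strains correlated at 0.387, 0.112, 0.621 and 0.431 for numbers 1 to 4. The highest correlations with another number were 0.0805, 0.121, 0.141 and 0.426. The link to the number was therefore clear for 1 and 3, slight for 4 and not seen for 2. No other same-numbered arrays deviated together throughout. Alternatives varied filter, floor, probe set choice, scaling, test form and arrays. Genes named are the catalytic subunits, Psme1, Psmc3ip, Cdkn2c, members past the test, the 2 largest differences each way per comparison, and up to 5 partners per comparison. Members, lists and rules were chosen with earlier results of these data known.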

Additional observations from a re-analysis of the deposited data

Results flagged for a closer look

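Of 96 groups of 4 arrays, over the 24 genes named by rule, 6 held an array far from the others by Dixon's test, where chance alone would give about 1 in 20 (4.8). Psmc5 read 2 on B6_B1a 1, against 2.13 to 2.14 on the other 3. Psmd14 read 2.76 on Sle2c1_Bs 2, against 2.85 to 2.86. Psme1 read 2.79 on Sle2c1_B1a 1, against 3.01 to 3.05, and Psme4 read 2.66 on Sle2c1_Bs 4, against 2.58 to 2.59. Psmg4 lay at the floor of 0.495 on Sle2c1_B1a 4, against 1.44 to 1.63, and Psmc3ip lay at 0.495 on B6_Bs 3, against 1.73 to 1.78.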

How the results depend on the processing

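The counts of genes called between strains and for the interaction stayed at 0 under all alternatives run and without each single array. In B6, the count of 11 between B1a and Bs became 7 after quantile normalization, 3 after median centring, 23 with array weights, 6 without 3 arrays that stood apart and 3 at an adjusted p under 0.01, and lay between 5 and 11 without single arrays (5 without B6_B1a 2 or B6_B1a 3, 6 without B6_Bs 3, 7 without B6_Bs 2 or B6_Bs 4). Of all features in B6, 21.5% were called after quantile normalization, 19.3% after median centring and 45.9% with array weights. Without the 3 arrays 18.2% were called, and 11% at an adjusted p under 0.01, against 21.3% in the main fit. The rise with array weights was thus shared by all features. In Sle2c1, the count of 14 became 4 after median centring (21.8% of all features). It became 5 at an adjusted p under 0.01 (14.5%, against 25.8% in the main fit). It lay between 10 and 14 without single arrays. Psmb9 in B6 passed at -0.2 with the filter on 8 of 16 arrays (adjusted p = 0.0497), with features above the floor only (0.0261), with a floor at 1 (0.0474), with trend and robust fitting (0.0347) and with only the compared arrays (0.0293), and at -0.196 with array weights (0.0186), which also gave Psmb8 -0.161 (0.0176) and Psmb10 -0.111 (0.0441). With probe sets averaged, Psmb8 passed at -0.659 in B6 and -0.607 in Sle2c1, and Psmc1 in B6 turned to 0.014 (adjusted p = 0.956), as its 2 probe sets oppose each other. The cause of the other changes was not tested. Median centring put the median strain difference of the 48 genes in B1a at -0.119, beside -0.0725 over all features. A change of sign was counted only where the value was called or both values exceeded their SE. With the replicate block over all 16 arrays the counts were 0 and 0 between strains and 11 and 14 between cell types, and within each cell type 0 and 0. The block changed no other call. Signal near the floor limits Psma8, Psmd9, Psmg4, Psmd7 and Psmc3ip.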
